A study of Mus musculus with 24 samples.

Results

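The Nanog, Dppa3 and Gdf3 locus is a stretch of 130 kb of mouse chromosome 6 (build mm10, chr6:122600000-122730000) that holds 3 genes of pluripotent cells. It was defined by position alone, as every row of the deposited table inside those bounds, together with windows of 1000 bp on either side of each end of the 3 genes. Of 21875444 CpG positions in the table, 1480 lay in the locus, or 11.4 per kb. A call in any library was present at 1436 of them, and calls in every library at 1017. The study measured 5-methylcytosine by oxidative bisulfite sequencing, which removes the signal of 5-hydroxymethylcytosine by oxidising it first. The cells were mouse induced pluripotent stem (iPS) cells grown over feeder cells. They were wild type, or 1 of 2 clones, N5 and N9, with a knock-in from which doxycycline induces the microRNA miR-203. Samples were taken at t=0 before doxycycline, at day 10, which was 5 days after a doxycycline pulse of 5 days, at day 25, 20 days after the pulse, and as embryoid bodies at day 32. Embryoid bodies are hanging-drop aggregates in which pluripotent cells differentiate. The wild-type cells carry the same after-doxycycline labels, and their embryoid bodies are labelled with 10 days of differentiation where the series design gives 7. The 24 samples made up 12 libraries, every one run on 2 lanes. A stage therefore had 1 wild-type library beside 1 of each clone. Each clone is a single line. The p-values given here rest on the spread between those 2 clones, where the spread at each window or tile is drawn towards that of all of them.

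Nanog encodes a homeodomain transcription factor at the centre of the pluripotency network. Dppa3, also known as Stella, encodes a chromatin protein that marks primordial germ cells and shields the maternal genome of the zygote from demethylation. Gdf3 encodes a secreted ligand of the transforming growth factor beta family that acts through the Nodal and activin receptors. The genes lie side by side, are active in embryonic stem cells and are silenced as these cells differentiate. Methylation of CpGs at promoters and enhancers is generally linked to silence, whereas active regulatory elements are kept at low methylation.

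Gdf3 (gene ID 14562) spans chr6:122605403-122610087, Dppa3 (73708) chr6:122626424-122630271 and Nanog (71950) chr6:122707489-122714633. All are protein-coding genes of the RefSeq annotation of GRCm38.p6. That annotation, as used here, gave no strand, and the RefSeq promoter table held no entry for Dppa3 and Gdf3. The ends of a gene are therefore called its lower and higher end by coordinate. The end with more CpGs was the lower one for Nanog (34 CpGs in its window, against 22) and Dppa3 (44 against 17), and the higher one for Gdf3 (38 against 21). For Nanog the RefSeq promoter table places the start of transcription at the lower end, on the plus strand. That promoter sequence, 250 bases before to 50 after the start, is shown because its CpGs are among those whose methylation is described next. Capitals mark its CpGs.

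Nanog promoter, chr6:122707239-122707538 (+), RefSeq, GRCm38.p6: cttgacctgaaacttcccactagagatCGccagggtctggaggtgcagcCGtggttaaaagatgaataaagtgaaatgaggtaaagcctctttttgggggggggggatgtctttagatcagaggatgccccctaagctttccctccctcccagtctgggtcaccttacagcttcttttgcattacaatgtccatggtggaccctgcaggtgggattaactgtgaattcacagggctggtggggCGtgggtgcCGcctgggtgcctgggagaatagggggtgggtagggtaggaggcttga

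The sequence holds 4 CpGs, at -223, -201, -7 and 2 from the start. Over 32851 RefSeq promoters of 300 bases the median was 7, and 38.0% had 4 or fewer. Letters for the binding sites of POU and Sox factors, whose members Oct4 and Sox2 are known to act on this promoter, were searched on both strands. TTTGCAT begins at -75 and occurs in 4.63% of all promoters, and ACAATG begins at -67 and occurs in 12.6%. Both in this order with 1 base between them occur in 2 promoters (0.00609%), the overlapping pair of Nanog entries. That spacing was taken from the element known at Nanog, and it holds no CpG.

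The 12 libraries held 102896335 to 191210205 calls at CpGs. Mean coverage of the locus was 5.77 to 10.7 calls per CpG, and the end windows of the 3 genes held 92 to 566 calls per library. Wilson intervals are at 95% and cover counting error only. The N5 libraries of t=0, day 25 and embryoid bodies were on another flow cell than the other 9. No RNA data were used here, so the cell types were not checked by expression. The first part of chromosome Y had 0.0380 (N5) and 0.0392 (N9) times the coverage of chromosome 5 at t=0, and 0.0128 and 0.0106 times at day 25. It was at most 0.00185 in the other 8 libraries. Chromosome X had, in the order of the stages, 0.520, 0.696, 0.594 and 0.642 times that coverage in N5 and 0.524, 0.694, 0.618 and 0.511 times in N9. In the wild type it had 0.606 to 0.676. Pooled methylation at the ends of 20 fibroblast genes, listed as markers of feeder cells, was 9.95% to 14.6% in the iPS libraries and 18.6% to 21.1% in embryoid bodies. The ends of 6 pluripotency genes, Nanog itself among them, pooled to between 8.72% (N9 at day 25) and 20.8% (N5 embryoid bodies). The part of these differences in the results that follow was not tested.

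Over the whole locus, the clones were less methylated at day 25 than at t=0 and more methylated in embryoid bodies than at any iPS stage, while the wild type stayed in a narrow range. Clone N5 went from 42.2% (t=0) through 32.6% (day 10) and 24.3% (day 25) to 48.1% as embryoid bodies. Clone N9 went from 40.7% through 35.8% and 22.6% to 46.8%. The stages of the clones did not overlap, with day 25 lowest and embryoid bodies highest. The wild type gave, in the order of the stages, 37.2% (interval 36.3 to 38.1), 38.1% (37.1 to 39.0), 36.0% (34.9 to 37.0) and 39.6% (38.7 to 40.5). The autosomes as a whole were more methylated, at 64.8% ± 0.0893, 60.4% ± 0.510, 48.1% ± 0.471 and 71.5% ± 0.507 in the clones at the same stages (SD, n = 2). Wild-type autosomes stood at 60.6%, 61.4%, 61.1% and 69.6%. These pooled levels were not tested.

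**Figure D1:**
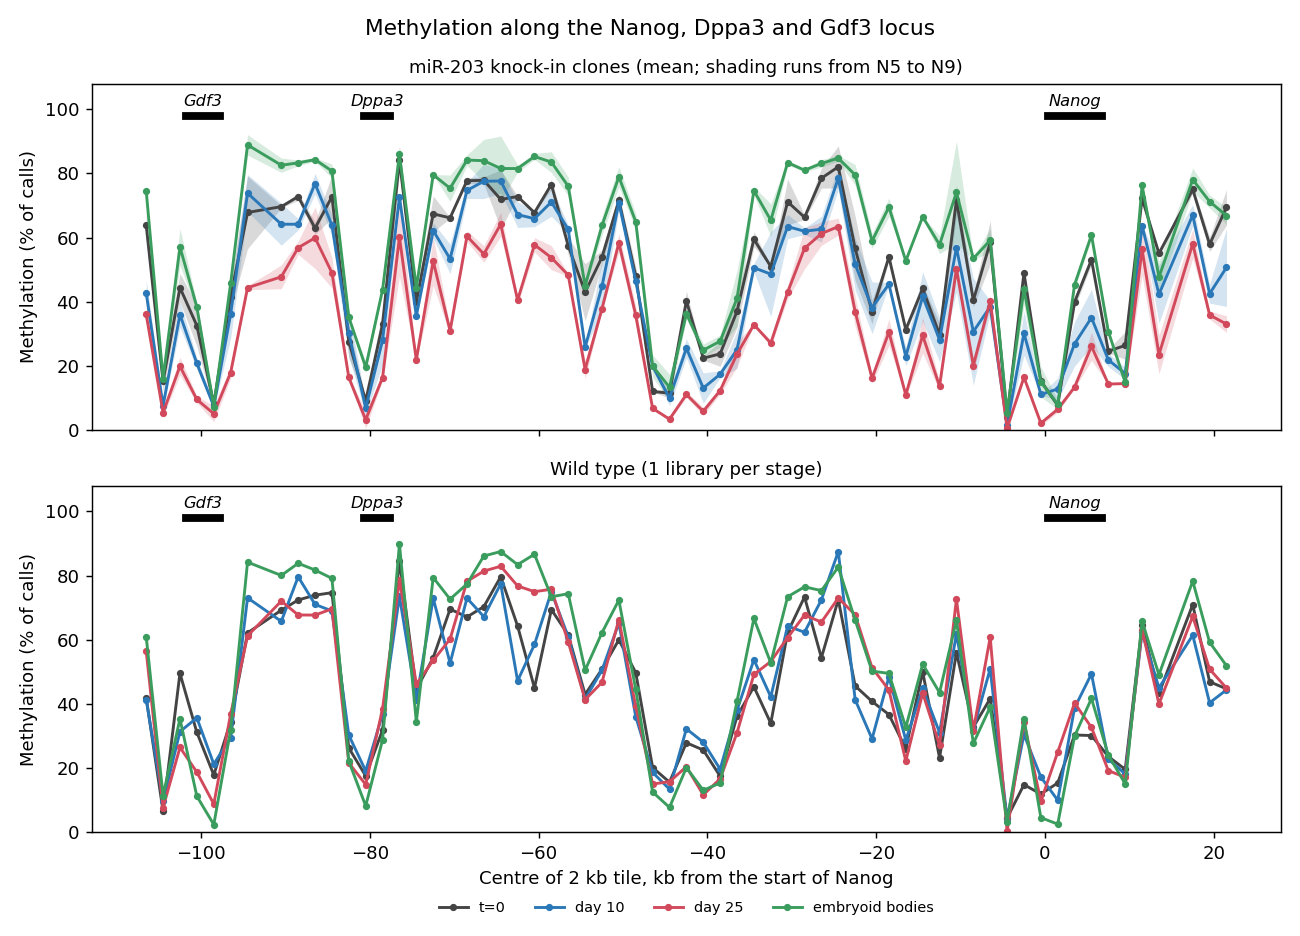
Methylation (percent of calls) of the tested 2000 bp tiles of the locus against the distance of the tile's centre from the start of Nanog in kb, for the clones (top, mean of N5 and N9 with shading from one clone to the other) and the wild type (bottom, 1 library per stage). Black bars are the genes and lines pass over the 2 tiles with too few CpGs or calls. In the clones the day 25 line lies lowest along most of the locus and the embryoid body line highest, while the 4 wild-type lines cross each other.

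Methylation was uneven along the locus. Between Gdf3 and Dppa3 the clones stood at 63.6% ± 1.02 at t=0, and between Dppa3 and Nanog, where 864 of the CpGs lie, at 43.7% ± 0.768 (SD, n = 2). The genes with 1000 bp on either side were lower, at 21.7% ± 2.76 for Gdf3, 24.7% ± 2.18 for Dppa3 and 24.9% ± 1.50 for Nanog. At day 25 the same stretches stood at 8.36%, 11.8% and 10.7%, as pooled levels that were not tested. In embryoid bodies they stood at 22.2%, 32.7% and 28.8%. In the wild type the same genes were lower in embryoid bodies than at day 25, from 15.3% to 10.6% for Gdf3, from 26.8% to 21.9% for Dppa3 and from 24.7% to 18.4% for Nanog.

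The CpG-denser end of Nanog (chr6:122706489-122708489), which holds its promoter and the beginning of the gene, was lowly methylated in all iPS libraries and nearly free of methylation in the clones at day 25. The clones N5 and N9 showed 10.8% and 10.0% at t=0, 11.8% and 9.17% on day 10, 3.04% and 0.785% on day 25, and in embryoid bodies 8.60% and 14.6%. The wild type showed 12.5% (interval 9.68 to 16.1), 16.1% (12.5 to 20.5), 12.2% (8.75 to 16.7) and 2.43% (1.24 to 4.72) at the same stages. The day 25 clone libraries and the wild-type embryoid bodies were thus low, and the other 9 libraries lay above them without overlap. From t=0 to day 25 the clones fell by 8.48 points, from 10.4% ± 0.523 to 1.91% ± 1.59 (SD, n = 2), with an adjusted p of 9.54e-04 by edgeR's quasi-likelihood test. From day 25 to embryoid bodies they rose by 9.69 points (edgeR adjusted p = 4.20e-05), in both clones. From t=0 to day 10 the difference was 0.0902 points (edgeR adjusted p = 0.999).

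Single CpGs of the Nanog promoter had few calls each, pooled here over clones. At day 25 the 4 CpGs gave 0 methylated of 28, 24, 32 and 30 calls in the clones, with upper Wilson bounds of 12.1%, 13.8%, 10.7% and 11.4%. At t=0 the same CpGs gave 3 of 22, 2 of 23, 1 of 12 and 0 of 16. In embryoid bodies of the clones they gave 1 of 14, 1 of 15, 1 of 29 and 0 of 27. The wild type at day 25 gave 1 of 7, 1 of 3, 4 of 8 and 0 of 8, where the CpG at -7 had an interval of 21.5% to 78.5%. These counts are too small to separate the stages at a single CpG.

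The other end of Nanog (chr6:122713633-122715633) was more methylated, and in the clones it moved in the same directions. N5 and N9 had 30.9% and 32.6% at t=0, 26.3% and 33.6% on day 10, 18.4% and 18.3% on day 25, and in embryoid bodies 43.6% and 46.0%. The wild type had 25.2%, 33.6%, 22.8% and 27.5%, so that in wild-type cells the embryoid bodies lay inside the range of the iPS stages. The clones fell from t=0 to day 25 by 13.4 points (edgeR adjusted p over both ends of all genes = 0.0175). Leaving out any 1 of the 4 libraries gave changes of -14.29 to -12.58 points, with an adjusted p of 0.0504 to 0.0866. The rise to embryoid bodies was 26.5 points (edgeR adjusted p = 5.96e-05). Between the end windows, the body of the gene went from 34.9% ± 0.847 at t=0 to 15.9% ± 2.04 at day 25 and 37.1% ± 1.83 in embryoid bodies, as pooled levels without a test.

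Enhancers of pluripotent cells are known upstream of Nanog. The tiles at those places were the 3 least methylated between Dppa3 and Nanog in the clones at t=0. The tile centred at -4.49 kb from the start (chr6:122702001-122704000, 37 CpGs) ranged over all 12 libraries from 0.260% in N9 at day 25 to 7.99% in N9 embryoid bodies. Its neighbours at -6.49 and -2.49 kb stood at 58.5% and 49.0% in the clones at t=0, so in those libraries the low stretch was narrow. The neighbour at -2.49 kb was lower in the clones at day 25 and in the wild type at t=0, as given below. At -4.49 kb the clones fell from 4.24% ± 1.82 to 0.574% ± 0.444 by day 25 (edgeR adjusted p = 6.50e-04). They rose to 5.42% ± 3.63 in embryoid bodies (edgeR adjusted p = 1.14e-05). The wild type showed 4.42%, 4.17%, 0.379% and 3.13%, its lowest value at day 25 too, and no difference between genotypes passed the test. At day 25 it was 0.195 points (edgeR adjusted p = 0.739), and the change from t=0 differed by 0.381 points (0.749).

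At the tile centred at -44.5 kb (chr6:122662001-122664000, 46 CpGs), the clones were low at day 25 and the wild type was not. N5 and N9 had 13.0% and 10.0% at t=0, 7.58% and 12.4% on day 10, 2.87% and 3.96% on day 25, and in embryoid bodies 9.33% and 17.4%. The wild type had 15.6%, 13.4%, 15.8% (interval 12.8 to 19.3) and 7.76% (5.70 to 10.5). Here the clones fell by 8.09 points to day 25 (edgeR adjusted p = 2.07e-04). At day 25 their difference from the wild type was -12.4 points (edgeR adjusted p = 5.79e-04). The change from t=0 differed between genotypes by -8.25 points (edgeR adjusted p = 0.0407), near the threshold. From day 25 to embryoid bodies the clones rose by 9.95 points, and the change differed from that of the wild type by 18.0 points (edgeR adjusted p = 0.00152). At this tile neither difference in change passed by limma, which called 0 of all 1071836 tiles in both comparisons. In the clones the tile beside it at -46.5 kb fell by 5.28 points (edgeR adjusted p = 0.0490), just past the threshold.

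The CpG-denser end of Dppa3 (chr6:122625424-122627424) fell and rose at the same stages as that of Nanog. N5 and N9 had 14.4% and 16.5% at t=0, 16.6% and 10.3% on day 10, 7.60% and 3.42% on day 25, and in embryoid bodies 28.9% and 29.5%. The wild type had 24.01% (interval 19.9 to 28.7), 27.4% (22.9 to 32.4), 22.05% (17.4 to 27.5) and 13.3% (9.93 to 17.5). The clones at day 25 were the lowest and their embryoid bodies the highest of all 12 libraries. From t=0 to day 25 the clones fell by 9.92 points (edgeR adjusted p = 0.00510). Without the N9 library of day 25 the change was -7.83 points with an adjusted p of 0.0668. From day 25 to embryoid bodies the clones rose by 23.7 points (edgeR adjusted p = 3.03e-06), from 5.51% ± 2.95 to 29.2% ± 0.409 (SD, n = 2). The body of Dppa3 between its end windows was lower still, at 8.12% ± 1.38, 8.89% ± 6.14, 2.30% ± 0.380 and 18.7% ± 2.04 in the clones, as pooled levels without a test.

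The higher end of Dppa3 (chr6:122629271-122631271), with 17 CpGs, was the most methylated of the end windows. The clones N5 and N9 had 71.0% and 81.7% at t=0, 56.5% and 67.2% on day 10, 57.6% and 45.8% on day 25, and in embryoid bodies 82.0% and 73.4%. The wild type had 72.3%, 64.3%, 64.5% and 74.5%. Clone libraries of day 10 and day 25 overlapped each other, while those of t=0 and embryoid bodies lay above both. The clones fell by 24.7 points to day 25 (edgeR adjusted p = 0.00173) and rose by 26.0 points in embryoid bodies (edgeR adjusted p = 3.86e-04).

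At Gdf3 the CpG-denser end passed neither stage comparison in the clones. At this higher end (chr6:122609087-122611087) N5 and N9 had 13.1% and 8.05% at t=0, 6.54% and 8.72% on day 10, 8.92% and 3.26% on day 25, and in embryoid bodies 9.17% and 4.52%. The wild type had 19.1% (interval 15.3 to 23.7), 20.6% (16.8 to 24.9), 5.70% (3.49 to 9.20) and 4.91% (3.27 to 7.32). The clone libraries of all stages overlapped, and in the wild type the early pair of stages lay above the later pair. The changes in the clones were -4.50 points to day 25 (edgeR adjusted p = 0.118) and 0.756 points to embryoid bodies (edgeR adjusted p = 0.736). Without the N5 library of day 25, the change to day 25 was -7.33 points with an adjusted p of 0.0311, and without the N9 library of day 25 it was -1.676 points and was not called. Over 2000 bp on either side of this end, which takes in more of the gene, the clones changed by -8.94 points to day 25 (edgeR adjusted p = 0.00290) and by 9.47 points to embryoid bodies (8.30e-04).

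The lower end of Gdf3 (chr6:122604403-122606403) fell and rose in the clones. N5 and N9 had 38.9% and 47.3% at t=0, 32.0% and 42.3% on day 10, 15.5% and 18.1% on day 25, and in embryoid bodies 50.2% and 62.9%. The wild type went from 47.7% (interval 39.8 to 55.6) at t=0 to 31.5%, 27.5% and 28.6% (23.1 to 34.8). The clones were lowest at day 25 and highest in embryoid bodies, while in the wild type t=0 was highest. The clones fell by 26.2 points to day 25 (edgeR adjusted p = 2.58e-04) and rose by 39.8 points to embryoid bodies (edgeR adjusted p = 5.69e-07), the largest of the 6 end windows.

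**Figure D2:**
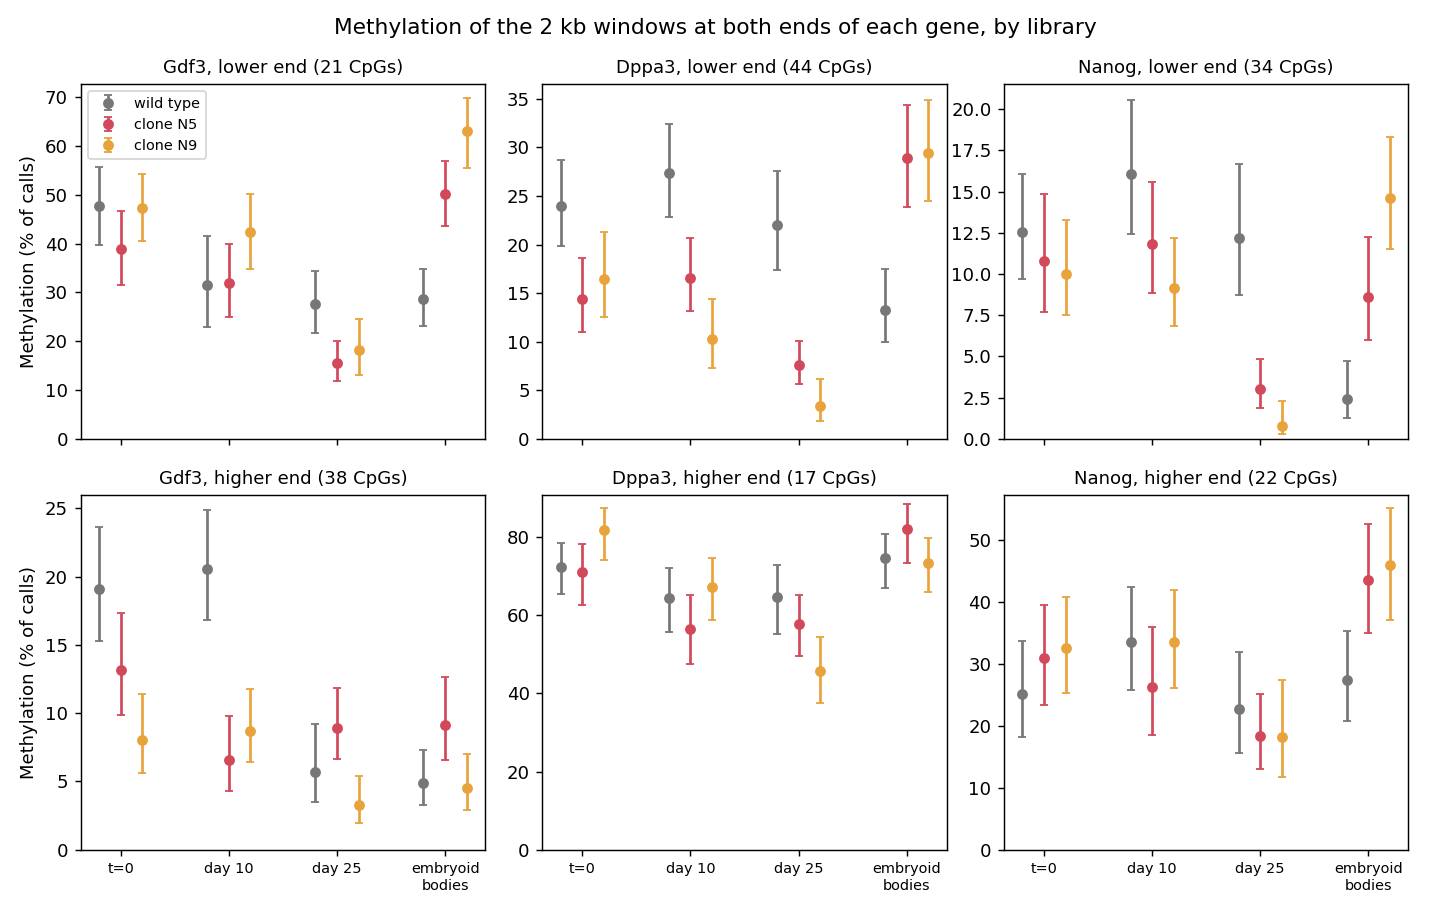
Methylation (percent of calls) of the windows of 1000 bp on either side of the lower and higher end of Gdf3, Dppa3 and Nanog in each library, with 95% Wilson intervals, by stage; grey is the wild type, red clone N5 and yellow clone N9. Each panel has its own axis from 0; in the 6 windows both clones are lower at day 25 than at t=0 and higher again in embryoid bodies, by least at the higher end of Gdf3, where neither change passed the test.

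Of the 6 end windows, 5 fell in the clones from t=0 to day 25 by edgeR, where 60.4% of 39847 windows over both ends of all genes were lower. From day 25 to embryoid bodies 5 rose, against 84.7% of those windows. With 1 window per gene, at the denser end, Nanog and Dppa3 fell and then rose, where 40.3% of 20311 windows were lower at day 25 and 74.6% higher in embryoid bodies. Both directions were thus common at gene ends throughout the genome. From t=0 to day 10 edgeR called 0 of the 6 windows (0.197% of denser ends in either direction), with 1 at an unadjusted p under 0.05, the higher end of Dppa3, and limma on the log2 ratio of calls called 0. Over both ends of all genes edgeR called 29 of 39847 windows higher and 34 lower.

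Tiles of 2000 bp carried the same comparison through the space between the genes. Of 65 tiles, 63 had enough CpGs and calls. By day 25, 51 tiles (81.0%) fell in the clones and 0 rose, where 63.4% of 1071836 tiles of the genome were lower. The median change over the tiles of the locus was -18.1 points, beside -16.9 over all tiles. In 60 of the 63 tiles both clones were lower at day 25. From day 25 to embryoid bodies 60 tiles (95.2%) rose and 0 fell, against 88.1% higher genome-wide, with a median of 26.4 points beside 24.2. Of the 823757 tiles with at least 30 calls, 785513 were higher. At day 10 edgeR called 0 tiles (0.171% of all tiles in either direction), with 21 at an unadjusted p under 0.05. Limma called 0, with 12 at an unadjusted p under 0.05, and it called 0 of all 1071836 tiles. Without the N9 library of day 10 edgeR called 4.

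The 5 tiles that fell most by day 25 lay between -70.5 and 21.5 kb from the start of Nanog. The tile at 21.5 kb lies inside the glucose transporter gene Slc2a3, near its lower end but without holding it. It changed by -36.4 points, from 75.0% and 63.9% to 35.6% and 30.5% in N5 and N9. The tile at -70.5 kb changed by -35.2 points, from 66.3% and 66.0% to 29.8% and 32.1%. The tile at -62.5 kb, which holds the pseudogene Gm8460, changed by -32.3 points, and that at 13.5 kb by -31.5. At -2.49 kb from the start of Nanog the change was -32.5 points, from 48.8% and 49.2% to 15.7% and 17.3%. All 5 had an edgeR adjusted p between 3.06e-06 and 3.90e-04. The largest rises to embryoid bodies were 44.5 points at -94.5 kb, 44.5 at -70.5 kb, 44.1 at -12.5 kb, 42.8 at -20.5 kb and 42.6 at -22.5 kb.

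**Figure D3:**
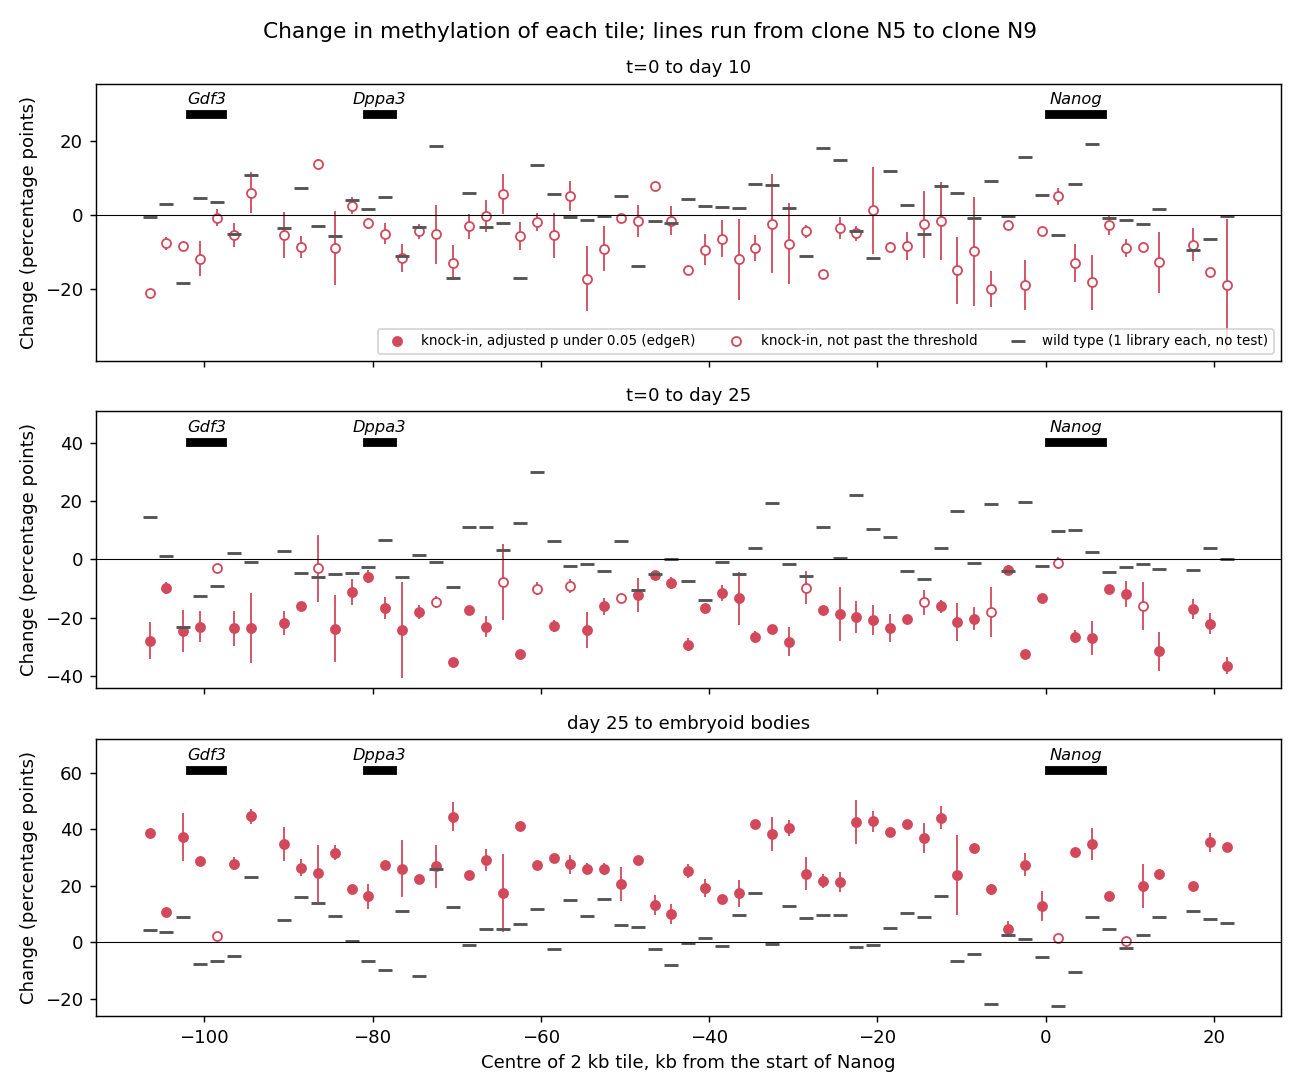
Change in methylation (percentage points) of each tested tile in the clones, against the distance of its centre from the start of Nanog in kb, for t=0 to day 10, t=0 to day 25 and day 25 to embryoid bodies. Filled red points passed the threshold of 0.05 by edgeR and open ones did not, lines run from clone N5 to clone N9, and grey dashes are the wild type with 1 library per stage. At day 25 all red points lie below 0 and in embryoid bodies all lie above it, while the wild-type dashes fall on both sides of 0.

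Tiles were also grouped by their level in the clones at t=0, which is part of the comparison and is therefore given as a description. Of 14 tiles under 30%, with a median of 30.5 CpGs, 12 fell by day 25, and the median level went from 15.3% to 6.17%. Of 25 tiles from 30% to 60%, 22 fell, with medians of 44.4% and 23.6%. Of 24 tiles at 60% or more, 17 fell, with medians of 71.8% and 55.6%. The median share of the t=0 level still present at day 25 was 48.9%, 49.8% and 74.3% in the 3 classes. In embryoid bodies their medians were 17.8%, 57.1% and 82.1%.

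Before doxycycline, 1 tile and none of the gene ends was called different between genotypes. Of the 6 end windows edgeR called 0 at t=0 (0.537% of denser ends in either direction), with 0 at an unadjusted p under 0.05 and 0 called by limma. Over both ends of all genes edgeR called 41 of 39847 windows higher and 84 lower. With 500 bp on either side, the denser end of Dppa3 was called, at -24.8 points (edgeR adjusted p = 0.0222). Of 63 tiles, 1 was higher in the clones, where 0.0716% of all tiles were. It was the tile at -2.49 kb from the start of Nanog, at 48.8% and 49.2% in N5 and N9 and 14.9% in the wild type, a difference of 34.1 points (edgeR adjusted p = 0.00655). That wild-type value stood apart from 30.5%, 34.4% and 35.4% in the later wild-type libraries. The tile was not called without N5 or without N9 of t=0, by limma, or with the clone and the flow cell as terms. At t=0 limma called 0 of all 1071836 tiles. At day 10 edgeR called 0 of the 6 windows (0.0148% of denser ends) and 0 tiles (0.0447% of all tiles). Over both ends of all genes it called 2 of 39847 windows higher and 7 lower. Of the 6 windows and 63 tiles, 2 windows and 8 tiles had an unadjusted p under 0.05. Limma called 0 of either, and 0 of all 1071836 tiles.

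At day 25 the denser ends of Nanog and Dppa3 were lower in the clones than in the wild type. The difference was -10.3 points for Nanog (edgeR adjusted p = 0.00416) and -16.5 points for Dppa3 (edgeR adjusted p = 0.00496), with both clones lower, where 10.2% of all denser ends were lower. With the flow cell and the clone as terms the adjusted p was 0.0957 for Nanog and 0.221 for Dppa3, and by limma it was 0.0524 for Dppa3. The denser end of Gdf3 differed by 0.387 points (edgeR adjusted p = 0.952). The test of how far the genotypes differed in their change from t=0 to day 25 came close to the threshold for Nanog. It gave -8.12 points with an edgeR adjusted p of 0.0713 over 1 window per gene, where 1.92% were lower, and of 0.0416 over both ends, where 9.98% were. For Dppa3 it gave -7.96 points (edgeR adjusted p = 0.181) and for Gdf3 8.90 points (0.392).

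Among the tiles, 19 (30.2%) were lower in the clones than in the wild type at day 25, where 16.8% of all tiles were. The median difference was -12.4 points, smaller than the -13.3 over all tiles. The count of 19 was 12 without the N5 library of day 25, 9 without the N9 library and 1 by limma, which had 29 tiles at an unadjusted p under 0.05. Over all 1071836 tiles limma called 10684 lower. The largest differences were -36.3 points at -62.5 kb, -35.2 at -20.5 kb and -30.9 at -22.5 kb. The change from t=0 differed between genotypes in 19 tiles, all more negative in the clones, where 11.8% of all tiles did, with a median of -19.2 points beside -17.0. That count was 7 without the N9 library of day 25, 10 and 11 without the N9 and N5 libraries of t=0, and 0 by limma, with 30 at an unadjusted p under 0.05. By edgeR, 147242 of the 823757 tiles with at least 30 calls had a more negative change in the clones. Limma called 0 of all tiles in this comparison, so its count says nothing particular to the locus. The difference was widest at -2.49 kb, with -52.1 points, where the low wild-type value of t=0 enters.

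The change from day 25 to embryoid bodies differed between genotypes at 3 of the 6 gene ends. The denser end of Nanog rose in the clones and stood at 12.2% and 2.43% in the wild type at day 25 and in embryoid bodies, a difference in change of 19.4 points (edgeR adjusted p = 9.76e-04). At the denser end of Dppa3 the wild type stood at 22.05% and 13.3%, and the difference in change was 32.4 points (edgeR adjusted p = 0.00231, and 0.0559 by limma). At the lower end of Gdf3 it was 38.7 points (edgeR adjusted p = 0.0115, and 0.0809 by limma). For 1 window per gene, 6.06% of windows had a more positive change in the clones, and for both ends 9.03%. The denser end of Gdf3 showed a difference of 1.55 points (edgeR adjusted p = 0.784). The wild type entered with 1 library per stage, whose spread the fit takes from the clones, and its embryoid bodies are labelled with more days of differentiation than the design gives.

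**Figure D4:**
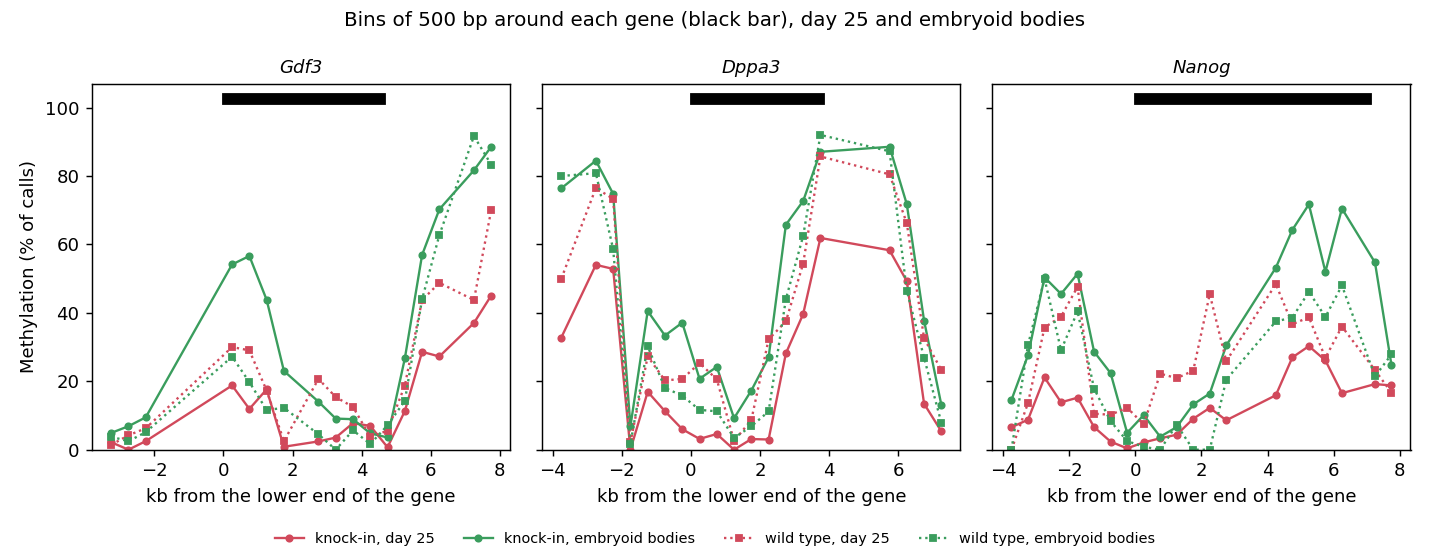
Methylation (percent of calls) in bins of 500 bp along Gdf3, Dppa3 and Nanog and their flanks, against the distance of the bin's centre from the lower end of the gene in kb, at day 25 (red) and in embryoid bodies (green), as the mean of the clones (solid) and the wild-type library (dotted). Bins with under 10 calls in any library are left out and lines pass over them; the solid green line lies above the solid red line in most bins, whereas the dotted lines run close together or cross.

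Set against each other, embryoid bodies of the clones were not called different from those of the wild type at any of the 6 end windows (0.0689% of denser ends in either direction). Over both ends of all genes edgeR called 20 of 39847 windows higher and 5 lower. Nanog was 9.17 points higher (edgeR adjusted p = 0.176), Dppa3 15.9 points (0.330) and the lower end of Gdf3 28.0 points (0.147), and 4 of the 6 had an unadjusted p under 0.05; limma called 0 as well. Of the tiles 1 was higher in the clones (0.0813% of all tiles), the tile at -100.5 kb inside Gdf3. It had 37.2% and 39.6% in N5 and N9 and 11.3% in the wild type, a difference of 27.2 points (edgeR adjusted p = 0.00525), and it was not called without the N9 library. The change from day 25 to embryoid bodies was more positive in the clones in 23 tiles (36.5%), where 8.05% of all tiles were, with a median of 23.8 points beside 15.6. This count was 12 without the N9 library of day 25 and 0 by limma, which had 35 tiles at an unadjusted p under 0.05. Here too limma called 0 of all 1071836 tiles. By edgeR, 99824 of the 823757 tiles with at least 30 calls in every library had a more positive change in the clones. The widest differences in change were 44.2 points at -22.5 kb, 43.8 at -20.5 kb and 42.3 at 3.51 kb, inside Nanog.

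Bins of 500 bp showed short stretches of low methylation in and beside Dppa3 and Nanog. At Dppa3, the bin from -2000 to -1501 bp of the lower end stood at 9.04%, 9.57%, 0% and 6.83% in the clones at the 4 stages. It lay between bins at 59.5% and 28.5% at t=0, so the low stretch outside the gene was short. In the wild type that bin stood at 34.4%, 9.09%, 2.13% and 1.72%. Inside the gene, the bin from 1000 to 1499 bp stood at 5.30%, 1.47%, 0% and 9.20% in the clones. At Nanog, the bin from -500 to -1 bp stood at 9.19%, 3.68%, 0.388% and 4.93% in the clones, and at 6.77%, 10.3%, 12.3% and 2.53% in the wild type. These bins hold 5, 15 and 8 CpGs, their library with fewest calls had 32, 59 and 65, and none was tested on its own.

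Other genes with an end in or near the locus were measured in the same fit. The end of Apobec1, the gene of a cytidine deaminase that edits apolipoprotein B messenger RNA, lies at the lower margin. It fell from 15.2% ± 4.49 to 5.45% ± 1.58 by day 25 (edgeR adjusted p = 0.00476) and rose to 16.1% ± 1.45 in embryoid bodies (6.32e-04). The denser end of Slc2a3 is its higher one, outside the locus (chr6:122801363-122803363). It had 7.40% ± 3.99 and 3.91% ± 0.532 (edgeR adjusted p = 0.0867) and rose to 10.9% ± 0.698 (0.00170). Of 11 genes in the locus or within 100 kb of it, apart from the 3 described, 5 could be measured at the denser end. Of these 3 fell by day 25 (40.3% of all denser ends) and 5 rose in embryoid bodies (74.6%), among them Mfap5, a microfibril gene, from 50.8% to 32.3% and 72.7%. A snoRNA and the pseudogenes Gm8460, Gm10420 and Gm10224 between Dppa3 and Nanog were not given windows of their own.

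The denser ends of 24 other pluripotency genes included 14 that fell in the clones by day 25 (40.3% of all denser ends), with a median of -2.81 points beside -3.90 over all. In embryoid bodies 15 rose, a smaller share than the 74.6% of all denser ends, with a median of 4.56 points beside 7.22. The lowest p-values belonged to Tcl1, a coactivator of Akt, which fell from 22.3% ± 8.62 to 4.48% ± 0.106 (edgeR adjusted p = 2.00e-04), and to Tdgf1, the coreceptor of Nodal, from 8.36% ± 0.880 to 2.15% ± 0.833 (0.00233). Dppa4, a chromatin protein gene, fell from 15.5% to 3.39%, and Zfp42, also known as Rex1, from 12.8% to 4.55% (edgeR adjusted p = 0.00261 and 0.00300). Dppa4 also rose in embryoid bodies of the clones to 15.3%, while the wild type stood at 31.5% at day 25 and 1.95% in embryoid bodies (difference in change, edgeR adjusted p = 1.82e-04).

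Beside Gdf3, 8 of 20 genes of Nodal and activin signalling fell by day 25 (40.3% of all denser ends), with a median of -2.004 points beside -3.90 over all. In embryoid bodies 13 rose (74.6% of all denser ends), with a median of 4.03 points beside 7.22. Neither share was above that of all denser ends. The ends of Lefty2 and Lefty1, antagonists of Nodal, fell from 34.8% ± 2.01 to 6.60% ± 0.959 (edgeR adjusted p = 5.57e-05) and from 13.8% ± 9.14 to 2.65% ± 1.14 (0.00133). Tdgf1 belongs to this list too, and stood at 2.15% and 2.36% at day 25 and in embryoid bodies (edgeR adjusted p = 0.801).

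Beside Dppa3, 7 of 10 genes of primordial germ cells fell by day 25 (40.3% of all denser ends), with a median of -6.46 points beside -3.90 over all. In embryoid bodies 9 rose (74.6% of all denser ends), with a median of 9.50 points beside 7.22. Ifitm3, a membrane protein gene, fell from 6.29% ± 0.334 to 1.14% ± 0.378 (edgeR adjusted p = 0.00254) and Nanos3, an RNA-binding protein gene of germ cells, from 71.9% ± 1.15 to 50.7% ± 1.69 (0.00296). The transcription factor genes Tfap2c and Tfcp2l1 fell from 13.4% to 5.66% and from 4.19% to 1.16%. Of the 20 feeder-cell markers 3 fell by day 25 (Thy1, Twist2 and S100a4), where 40.3% of all denser ends did, and 16 rose in embryoid bodies, where 74.6% did.

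Across the 12 libraries, the denser ends of Nanog and Dppa3 varied together with r = 0.785, those of Nanog and Gdf3 with r = 0.519 and those of Dppa3 and Gdf3 with r = 0.389 (Pearson). The libraries share stage, clone and depth, so these are descriptions. Among 11006 windows whose levels spanned at least 10 points, those most like Nanog were Spata31d1d (r = 0.933) and the overlapping windows of Sirt6 and Ankrd24 (r = 0.907). Most like Dppa3 were Esam (r = 0.952), Tmem91 (0.947) and Zfp341 (0.939). Most like Gdf3 were Dapk3 (r = 0.858), Tdgf1 (0.855) and Rab26 (0.830). In likeness to Nanog, Dppa3 ranked above 99.55% of those windows and Gdf3 above 84.18%. For Dppa3, Nanog ranked above 95.58% and Gdf3 above only 18.11%. For Gdf3, Nanog ranked above 98.31% and Dppa3 above 95.37%.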

How the data were processed

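Oxidative bisulfite libraries were sequenced, and the authors deposited whole-number counts of methylated and of all calls per CpG (build mm10, per the submitters' processing notes, which name BWA and Picard 1.91). Which program made the methylation calls is not stated in the sources used here. The table has 2 columns per wild-type stage, headed rep1 and rep2. They were taken as 2 lanes of 1 library, since the labels give 2 lanes with 1 index, and were summed. If they are separate cultures, the wild type has more replicates than used here. No value column was left over (0). Counts were summed over windows of 1000 bp on either side of gene ends and over tiles of 2000 bp. Features with fewer than 5 CpGs, or fewer than 10 calls in any library, were left out, as were chromosome Y and the first 3000000 bp of each chromosome.

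Methylated and unmethylated counts were fitted for 8 groups with edgeR 4.0.16 (quasi-likelihood test, common dispersion, 4 residual degrees of freedom; R 4.3.3) without a replicate block, in 10 comparisons. P-values were adjusted by Benjamini-Hochberg over all features of a kind within a comparison, with a threshold of 0.05. P-values of the denser ends come from the fit with 1 window per gene and those of the other ends from the fit over both ends. Changes are differences of group means in percentage points. The scripts were tested on simulated data. Alternatives were a replicate block by clone, that block with a flow cell term, limma 3.58.1 on log2 ratios with 1 added to each count, other call minimums, window and tile sizes, and leaving out each clone library in turn.

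The same clones were sampled at every stage, so the clone pairs the samples. Deviations of N5 from N9 correlated between stages, over 20699 windows, from -0.0680 to 0.0190. The members and gene lists were chosen with earlier results of these data known. Named were the 3 genes, every other gene with an end in the locus, the 4 genes of each list with the lowest p from t=0 to day 25, tiles at gene ends or known enhancers, the 5 tiles with the largest called change per stage comparison, and the 3 windows most correlated with each gene. Some genes that this rule names are not reported here. Other tiles, the bins and the 3 called feeder markers were chosen after their values were seen.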

Additional observations from a re-analysis of the deposited data

Results flagged for a closer look

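At 3 gene ends, the change from day 25 to embryoid bodies differed between genotypes by the test of that difference. It was 19.42 points at the lower end of Nanog (edgeR adjusted p = 9.76e-04), 32.43 points at the lower end of Dppa3 (0.00231) and 38.70 points at the lower end of Gdf3 (0.0115), each more positive in both clones. By limma the last 2 did not pass (0.0559 and 0.0809). By edgeR, 19 of 63 tiles of the locus differed between genotypes in the change from t=0 to day 25, where 11.8% of all tiles were more negative. For the change from day 25 to embryoid bodies the number was 23 of 63 tiles, where 8.05% of all tiles were more positive. By limma 0 tiles passed in either comparison, with 30 and 35 at an unadjusted p under 0.05. Limma called 0 of all 1071836 tiles in both comparisons, so its count says nothing particular to the locus. With at least 30 calls in every library, edgeR called 147242 of 823757 tiles more negative in the first and 99824 more positive in the second. The wild type had 1 library per stage, and the part of library differences in these results was not tested.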

How the results depend on the processing

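No change that passed the threshold in both fits changed direction. Some changes that passed in neither fit did. With windows of 500 bp, Gdf3's higher end went from 7.61% at day 25 to 4.97% in embryoid bodies of the clones. The main fit gave a rise of 0.756 points there. Nanog's lower end went from 7.95% at t=0 to 7.76% at day 10 with those windows, against a rise of 0.0902 points. With clone as a replicate block, no window call changed. The share of tiles called then went from 81.0% to 79.4% for t=0 to day 25. For the difference between genotypes from day 25 to embryoid bodies it went from 36.5% to 34.9%. With the replicate block and flow cell terms, the differences from the wild type at day 25 were -10.26 points at Nanog's lower end (edgeR adjusted p = 0.0957) and -16.54 at Dppa3's (0.221), leaving 0 of 6 ends called in place of 2, and the difference in Nanog's change to day 25 passed (-8.12 points, 0.0446). Against the wild type, that fit called 0% of tiles at t=0 and in embryoid bodies and 1.59% at day 10.

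By limma, the lower end of Dppa3 did not pass against the wild type at day 25 (-16.54 points, adjusted p = 0.0524) or in its difference in change to embryoid bodies (32.43, 0.0559), nor did Gdf3's lower end in the latter (38.70, 0.0809). Limma called 0 of 6 ends for the difference in change to day 25, in place of 1, and 1 in place of 3 for that to embryoid bodies. Over both ends of all genes it called 0 and 310 of 39847 windows. Its share of tiles was 0% against the wild type at t=0 and in embryoid bodies, 1.59% at day 25, and 0% for both differences in change. Over all 1071836 tiles it called 10684 lower at day 25 and 0 in those other comparisons. CpGs with calls in every library gave 0 ends for the difference in change to day 25.

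Windows of 500 bp gave -7.571 points for Dppa3's lower end from t=0 to day 25 (edgeR adjusted p = 0.0595) and -24.78 against the wild type at t=0 (0.0222). Windows of 2000 bp gave -17.88 for Nanog's difference in change to day 25 (0.0132) and, at Gdf3's higher end, -8.942 to day 25 (0.00290), 9.471 to embryoid bodies (8.30e-04) and 14.00 for the difference in change (0.0297). Tiles of 5000 and 10000 bp raised the share called to 11.5% and 30.8% at day 10. Against the wild type the shares were 0% and 7.69% at t=0, and 76.9% and 100% at day 25. In embryoid bodies they were 3.85% and 7.69%. For the differences in change they gave 73.1% and 100% to day 25, and 88.5% and 100% to embryoid bodies. The share called over all tiles rose with tile size as well. Of 489718 tiles of 5000 bp and 250395 of 10000 bp, 9909 and 23742 were lower at day 10. Against the wild type, 1431 and 3535 were higher at t=0, 235241 and 185022 lower at day 25, and 873 and 755 higher in embryoid bodies. The difference in change was more negative to day 25 in 204584 and 167323, and more positive to embryoid bodies in 160308 and 151783.

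Leaving out each clone library in turn gave 0% to 6.35% of tiles called for t=0 to day 10. Against the wild type it gave 14.3% to 33.3% at day 25, and 0% to 1.59% both at t=0 and in embryoid bodies. For the differences in change it gave 11.1% to 31.7% to day 25 and 19.0% to 39.7% to embryoid bodies, and 0 to 1 ends to day 25. From t=0 to day 25, Nanog's higher end ranged from -14.29 to -12.58 points, Dppa3's lower end from -12.01 to -7.833 and Gdf3's higher end from -7.33 to -1.676.

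The locus level over CpGs with at least 5 calls in every library was 37.047%, 30.844%, 21.223% and 42.448% in the clones and 34.956%, 36.733%, 31.175% and 35.523% in the wild type. As a mean of CpG levels it was 25.389% at day 25 and 49.064% in embryoid bodies of the clones, and the wild type had 38.389% (t=0), 38.692% (day 25) and 40.499% (embryoid bodies). Over CpGs with calls in every library wild-type embryoid bodies had 38.732%. Of the other values under alternatives, 1155 were counted as unchanged. For tests this means the same side of the threshold, whatever the direction of a change that passed in neither fit. Counts were allowed to move by up to a fixed ratio, and levels within their error. Depth limited single CpGs and bins most.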
